A study of Mus musculus with 80 samples.

Results

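The genes described here make cholesterol or are controlled with it: 26 mouse genes were listed by name, of which 18 encode enzymes of the synthesis path, 4 sense sterol and control the transcription factor SREBP2, and 4 move sterol within or out of cells. They were found in an array table by gene symbol, and 23 of the 26 had a probe set annotated with that symbol alone, among 17097 genes with such a probe set. Acat2, Pmvk and Abca1 had none, so no signal is given for them. Testing asked for a log2 signal over 4.28, the median of all values, in 5 or more of the 80 arrays. This held for 11406 genes, 22 members among them. Npc1l1, the sterol uptake transporter of the gut, was above it in 0 arrays. Hmgcs1, the enzyme that makes HMG-CoA at the head of the path, was above it in 15 arrays, 0 of them from air groups and 1 of them outside the exposed wild-type groups. Hmgcs1 is therefore described by its values and left out of every count of tested members, which leaves 21.

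The arrays came from whole lungs of adult male mice, taken on the morning after a single inhalation of 6 h of air (0 ppm) or of styrene, a solvent used to make plastics, at 10, 40 or 120 ppm. The mice were C57Bl/6 wild type (WT), C57Bl/6 with CYP2F2 knocked out (KO), C57Bl/6 humanized for CYP2F1 (TG) and CD-1, an outbred stock, with 5 arrays called biological replicates in each of 16 groups. CYP2F2 is a styrene-oxidizing cytochrome P450 of club cells, the secretory cells of the mouse airway, and CYP2F1 is the human counterpart. The labels do not say which promoter drives CYP2F1, whether TG mice also lack CYP2F2, or whether an array held 1 animal or a pool. Log2 signal of Cyp2f2 ran from 12.04 to 13.27 in WT, 12.50 to 13.14 in CD-1, 11.51 to 11.89 in KO and 11.48 to 12.00 in TG, and whether its probe set reads the deleted part of the gene was not known here. Array medians ran from 4.53 to 4.60 in WT and 4.24 to 4.30 in CD-1, and were lower in KO (4.09 to 4.20) and TG (3.84 to 4.14), so each dose was compared with the air group of its own strain. TG 0 ppm replicate 4 had the lowest of these medians. In whole lung, fewer cells of a type and less RNA per cell cannot be told apart.

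Cells build cholesterol from acetyl-CoA by way of mevalonate, isoprenoids, squalene and lanosterol. SREBP2 is held in the endoplasmic reticulum by SCAP and the INSIG proteins while sterol is plentiful. When sterol is scarce SCAP carries it to the Golgi, where it is cut, and the released fragment enters the nucleus and switches on the genes of the path. Oxysterols, which are oxidized forms of cholesterol, bind INSIG and hold SREBP2 back, and they also activate the LXR receptors, which switch on efflux genes such as Abcg1. In lung, alveolar type 2 cells use cholesterol in surfactant and macrophages clear it.

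SREBP2 binds sterol regulatory elements, often beside sites of the CCAAT-binding factor NF-Y, so the start regions of the members were read for both. RefSeq windows of 300 bases (250 before to 50 after the start, GRCm38.p6) were found for 21 of the 26 members. These are not the 21 tested members. They include Acat2, Pmvk, Abca1, Npc1l1 and Hmgcs1, while Fdps, Fdft1, Sqle, Stard4 and Abcg1 had no window. The motif CCAAT, searched on both strands, lay in 18 of these 21 genes (85.7%), against 41.1% of 27025 genes with a window. The sterol element form TCACNCCAC, also searched on both strands, lay in 1 member, Hmgcs1 (4.76%), against 1.44% of genes. The last 180 bases before the start are shown for the 5 members with a single window that stood farthest above air in WT at 40 ppm, because these are the genes whose values lead the results below. Capitals mark CCAAT, its reverse form ATTGG, or the sterol element.
Hsd17b7, chr1:169969206-169969385, - strand: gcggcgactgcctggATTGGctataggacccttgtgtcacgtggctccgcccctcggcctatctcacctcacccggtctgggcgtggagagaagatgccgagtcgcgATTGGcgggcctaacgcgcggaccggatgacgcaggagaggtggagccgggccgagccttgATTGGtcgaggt
Lss, chr10:76531425-76531604, + strand: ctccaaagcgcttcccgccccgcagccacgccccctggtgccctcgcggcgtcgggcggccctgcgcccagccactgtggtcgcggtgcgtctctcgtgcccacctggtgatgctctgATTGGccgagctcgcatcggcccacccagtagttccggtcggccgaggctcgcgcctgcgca
Cyp51, chr5:4104698-4104877, - strand: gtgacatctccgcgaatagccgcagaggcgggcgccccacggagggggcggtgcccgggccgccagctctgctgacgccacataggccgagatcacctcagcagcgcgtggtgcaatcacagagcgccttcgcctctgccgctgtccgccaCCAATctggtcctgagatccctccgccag
Hmgcs1, chr13:119690171-119690350, + strand: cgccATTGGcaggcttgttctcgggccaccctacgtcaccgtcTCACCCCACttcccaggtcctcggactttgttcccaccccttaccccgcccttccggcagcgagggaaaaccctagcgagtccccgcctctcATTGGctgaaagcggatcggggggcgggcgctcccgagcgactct
Mvd, chr8:122443423-122443602, - strand: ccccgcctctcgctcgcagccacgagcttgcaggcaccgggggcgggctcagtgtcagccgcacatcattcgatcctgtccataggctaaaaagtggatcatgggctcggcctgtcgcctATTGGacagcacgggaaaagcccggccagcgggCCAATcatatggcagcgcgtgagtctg
Hsd17b7 holds 3 CCAAT matches, which begin 165, 73 and 12 bases before the start. Lss and Cyp51 hold 1 each, 62 and 29 bases before it, and Mvd holds 2 at 60 and 27 bases. In Hmgcs1 the sterol element begins 137 bases before the start, between CCAAT matches at 176 and 45 bases. Mvk, which is not shown, holds the motif CCAAT 5 times in its window. A match describes letters, and binding was not measured.

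In WT lungs most synthesis enzymes rose after styrene, 10 of 15 tested at 10 ppm and 13 of 15 at 40 and at 120 ppm, and the efflux gene Abcg1 fell at every dose. Of the 21 tested members, 10 rose and 1 fell at 10 ppm, 13 rose and 1 fell at 40 ppm, and 14 rose and 2 fell at 120 ppm. Over all 11406 genes the shares that rose were 7.67, 13.7 and 14.3% at the same doses, and those that fell 4.9, 12.4 and 9.65%. The median change of the members was 0.31, 0.42 and 0.44 in log2 units, and that of all genes was -0.00, -0.01 and 0.01. The 3 contrasts share their 5 air arrays. At 10 ppm the count of 11 was 7 without WT 10 ppm replicate 1 and 6 without replicate 5.

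**Figure D1:**
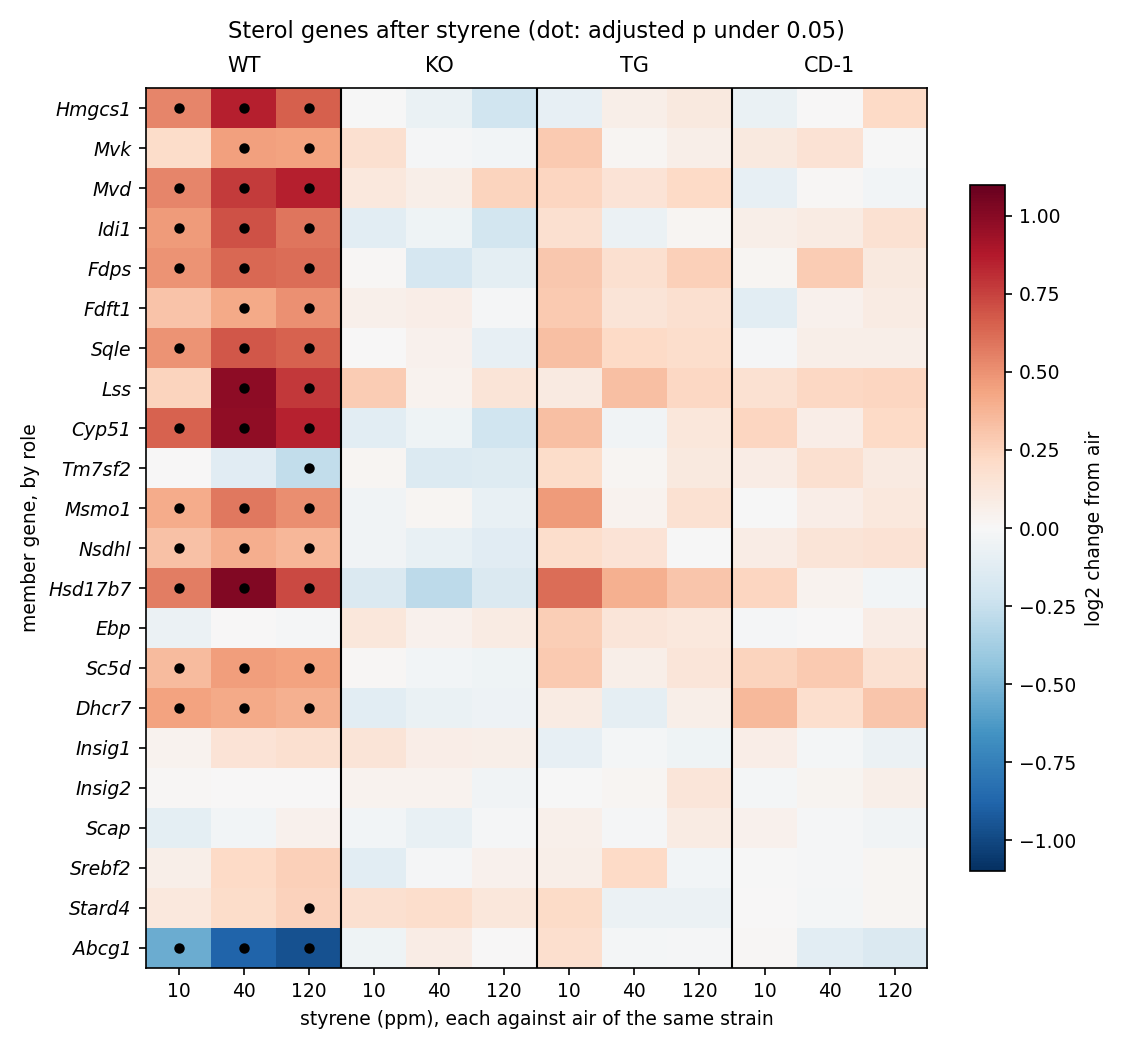
Log2 change from air (colour, scale at right) of 22 member genes (rows, enzymes in path order and then control and transport genes) at 10, 40 and 120 ppm styrene (columns) in WT, KO, TG and CD-1, each against 5 air arrays of its strain. A dot marks an adjusted p under 0.05. Dots lie in the WT columns alone, with 10 enzymes higher at 10 ppm besides Hmgcs1, which passed the level filter only through exposed WT arrays.

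Among the enzymes that turn lanosterol into cholesterol, Cyp51 and Hsd17b7 had the largest rises from air at each dose. Cyp51, the lanosterol demethylase, read 8.19, 7.84, 8.02, 7.65 and 7.34 in the 5 WT air arrays. At 10 ppm it read 8.77, 8.03, 8.38, 8.38 and 8.70, at 40 ppm 8.88, 8.76, 8.92, 8.72 and 8.63, and at 120 ppm 8.69, 8.51, 8.65, 8.69 and 8.74. The 10 ppm arrays overlapped with air, and all arrays at 40 and 120 ppm lay above it. Cyp51 rose by 0.65 ± 0.14 at 10 ppm (SE, n = 5 a group, adjusted p = 0.00422), by 0.98 ± 0.14 at 40 ppm (1.97-fold, adjusted p = 5.66e-05) and by 0.85 ± 0.14 at 120 ppm (1.80-fold, adjusted p = 0.00024).

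Hsd17b7, the ketosteroid reductase of the demethylation steps, read 5.73, 5.72, 5.89, 5.97 and 5.80 in air. It read 6.80, 6.19, 6.17, 6.18 and 6.58 at 10 ppm, 6.72, 6.94, 7.47, 6.48 and 6.58 at 40 ppm, and 6.24, 6.46, 6.65, 6.70 and 6.69 at 120 ppm, so that every exposed array lay above every air array. It rose by 0.56 ± 0.16 (adjusted p = 0.0224), 1.02 ± 0.16 (2.02-fold, adjusted p = 0.000134) and 0.73 ± 0.16 (adjusted p = 0.00262). Msmo1, which oxidizes the C4 methyl groups, rose by 0.41 ± 0.11, 0.58 ± 0.11 and 0.51 ± 0.11 at the 3 doses, and Nsdhl, which removes them with it, by 0.32 ± 0.08, 0.40 ± 0.08 and 0.37 ± 0.08. The last steps rose too: Sc5d, the desaturase that makes the provitamin D sterol, by 0.35 ± 0.10, 0.46 ± 0.10 and 0.45 ± 0.10, and Dhcr7, which reduces that sterol, by 0.44 ± 0.11, 0.42 ± 0.11 and 0.39 ± 0.11.

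A pair of enzymes of the same stretch did not pass as higher. Tm7sf2, one of the sterol C14 reductases, averaged 6.29 ± 0.07 (SD, n = 5) in air, 6.29 ± 0.17 at 10 ppm, 6.17 ± 0.19 at 40 ppm and 6.02 ± 0.15 at 120 ppm. It fell by 0.27 ± 0.09 at 120 ppm (adjusted p = 0.0359), a call that held in 3 of the 10 fits that left out 1 array (adjusted p up to 0.0992). Ebp, the sterol isomerase, averaged 9.16 ± 0.08 in air and stood at -0.06 ± 0.06, 0.01 ± 0.06 and -0.01 ± 0.06 from it.

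Around squalene, Sqle, the squalene epoxidase and a slow step of the path, read 8.48, 8.38, 8.43, 8.31 and 8.06 in air. It read 9.06, 8.55, 8.64, 8.71 and 9.20 at 10 ppm, 9.04, 9.20, 9.14, 8.87 and 8.84 at 40 ppm, and 9.03, 8.83, 9.03, 8.97 and 9.02 at 120 ppm, with no overlap with air at any dose. The rises were 0.50 ± 0.11 (adjusted p = 0.0057), 0.69 ± 0.11 (adjusted p = 0.000222) and 0.65 ± 0.11 (adjusted p = 0.000419). Lss, the cyclase that forms lanosterol, read 6.21, 5.85, 6.39, 6.41 and 5.89 in air and 6.87, 5.53, 6.08, 6.53 and 6.96 at 10 ppm, the widest scatter of the tested enzymes in a WT group (SD 0.59). It read 6.78, 7.34, 7.45, 7.14 and 6.96 at 40 ppm and 6.88, 6.73, 6.82, 7.29 and 6.92 at 120 ppm, all above air. It rose by 0.99 ± 0.21 at 40 ppm (adjusted p = 0.00241) and 0.78 ± 0.21 at 120 ppm (adjusted p = 0.0126), and stood at 0.24 ± 0.21 at 10 ppm (adjusted p = 0.503). Fdft1, the squalene synthase, rose by 0.42 ± 0.10 and 0.50 ± 0.10 at 40 and 120 ppm, and at 10 ppm it stood at 0.31 ± 0.10, just outside the threshold (adjusted p = 0.0501).

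The mevalonate part of the path, which also feeds isoprenoids, held rises as well. Idi1, the isomerase of the isoprenoid unit, read 9.47, 9.29, 9.55, 9.22 and 8.96 in air, 10.09, 9.37, 9.73, 9.71 and 9.93 at 10 ppm, 10.09, 10.02, 9.99, 10.00 and 9.88 at 40 ppm, and 9.97, 9.77, 9.75, 10.00 and 9.92 at 120 ppm. The groups at 40 and 120 ppm did not overlap with air. Idi1 rose by 0.47 ± 0.11, 0.70 ± 0.11 and 0.59 ± 0.11 (adjusted p = 0.0104, 0.000239 and 0.00119). Mvd, the mevalonate diphosphate decarboxylase, rose by 0.53 ± 0.16, 0.77 ± 0.16 and 0.86 ± 0.16 (1.81-fold at 120 ppm), and Fdps, which joins isoprenoid units to farnesyl diphosphate, by 0.49 ± 0.13, 0.63 ± 0.13 and 0.61 ± 0.13. Mvk, the mevalonate kinase, rose by 0.45 ± 0.09 at 40 ppm and 0.44 ± 0.09 at 120 ppm, and stood at 0.20 ± 0.09 at 10 ppm (adjusted p = 0.153).

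Hmgcs1 read 4.12, 3.93, 4.08, 3.88 and 4.04 in WT air, below the table median of 4.28. It read 4.97, 4.12, 4.54, 4.52 and 4.56 at 10 ppm, 4.91, 4.98, 4.83, 4.96 and 4.63 at 40 ppm and 4.69, 4.57, 4.39, 4.85 and 4.81 at 120 ppm. All exposed arrays lay above all air arrays, at 10 ppm by a margin of 0.0017. With no level filter on any gene its change was 0.53 ± 0.12, 0.85 ± 0.12 and 0.66 ± 0.12 (adjusted p = 0.00702, 5.49e-05 and 0.000798).

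Counting groups that do not overlap at all, the 21 tested members had 2 above air and 1 below it at 10 ppm, 12 and 1 at 40 ppm, and 12 and 2 at 120 ppm. Over all genes tested 6.07, 10.1 and 12.1% did so upward and 4.16, 8.28 and 7.85% downward. Another reading of the same genes came from the 16 probe sets of 11 members that had not been chosen. At each of the 3 doses 15 of these 16 changed in the same direction in WT as the chosen probe set of the gene. The second probe set of Cyp51 stood 0.75, 0.93 and 0.83 above air. That of Idi1 stood 0.62, 0.86 and 0.72 above it, and that of Mvd 0.49, 0.51 and 0.67. The remaining Cyp51 probe set stood at 0.01, 0.21 and 0.15, with overlap at every dose. The other Hsd17b7 probe sets stood at 0.43, 0.79 and 0.77 and, with overlap, at -0.06, 0.04 and 0.01. The other Sc5d probe sets stood at 0.11, 0.13 and 0.18 and at 0.32, 0.39 and 0.45, with overlap. The count of directions took in very small changes, such as 0.0034 for an Insig2 probe set at 10 ppm.

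**Figure D2:**
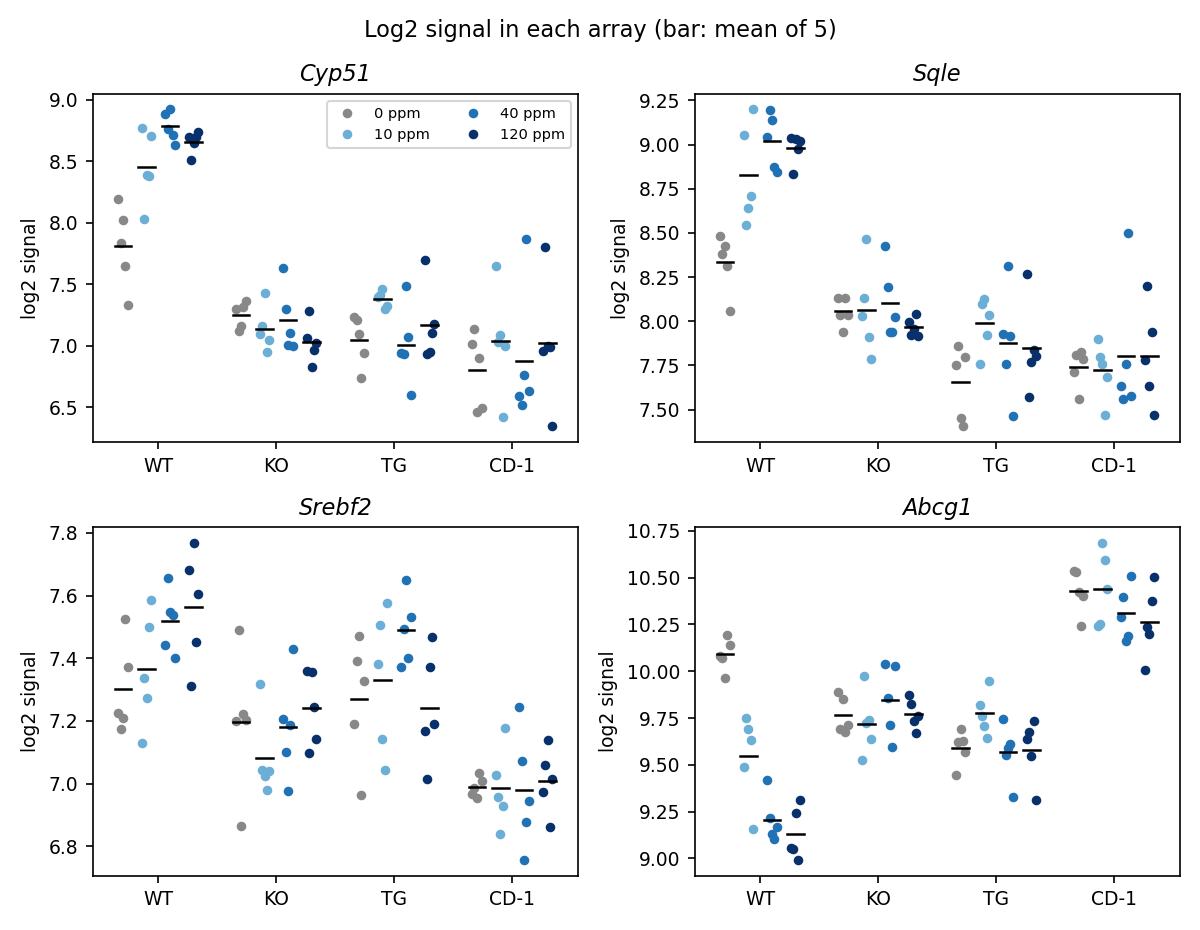
Log2 signal (vertical axis) in each of 80 arrays for the enzymes Cyp51 and Sqle, the SREBP2 gene Srebf2 and the efflux gene Abcg1, by strain and dose (colour), with a bar at the mean of 5 arrays. Levels are not centred and carry the shift in array medians between strains. In WT, Cyp51 and Sqle at 40 and 120 ppm sit above all air arrays and Abcg1 below them at every dose.

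None of the 4 control genes passed the test in WT at any dose. Srebf2, which encodes SREBP2 and is itself a target of it, read 7.23, 7.17, 7.21, 7.52 and 7.37 in air and 7.68, 7.31, 7.77, 7.45 and 7.61 at 120 ppm, with overlap. It stood at 0.06 ± 0.10, 0.22 ± 0.10 and 0.26 ± 0.10 from air at 10, 40 and 120 ppm (adjusted p = 0.712, 0.101 and 0.0515). Its other probe set stood 0.24 above air at 120 ppm, and there the groups did not overlap. Insig1, the SREBP-driven anchor that closes the feedback loop, stood at 0.04 ± 0.08, 0.15 ± 0.08 and 0.18 ± 0.08 (adjusted p = 0.79, 0.197 and 0.13). Insig2, the anchor that does not depend on SREBP in the same way, stood at 0.01 ± 0.05, 0.00 ± 0.05 and 0.01 ± 0.05, and the escort Scap at -0.11 ± 0.06, -0.03 ± 0.06 and 0.05 ± 0.06. A p that misses the threshold does not show that these genes stayed level.

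Abcg1, which exports cholesterol to HDL and is an LXR target abundant in alveolar macrophages, fell in WT at every dose. It read 10.08, 10.07, 9.96, 10.19 and 10.14 in air and 9.49, 9.75, 9.69, 9.63 and 9.16 at 10 ppm. At 40 ppm it read 9.42, 9.21, 9.13, 9.10 and 9.17, and at 120 ppm 9.06, 9.05, 9.24, 8.99 and 9.31. Every exposed array lay below every air array. The falls were -0.55 ± 0.10 (adjusted p = 0.000715), -0.88 ± 0.10 (adjusted p = 2.65e-06) and -0.96 ± 0.10 (adjusted p = 1.12e-06), which left 0.685, 0.542 and 0.514 of the air level. A second probe set of Abcg1 stood at -0.37, -0.62 and -0.79, also without overlap. Stard4, a carrier of sterol between membranes whose gene SREBP2 drives, rose by 0.25 ± 0.07 at 120 ppm (adjusted p = 0.0172, and 0.0529 without WT 120 ppm replicate 1), and stood at 0.12 ± 0.07 and 0.20 ± 0.07 at 10 and 40 ppm.

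Because Abcg1 is a macrophage gene, the macrophage markers of these lungs are given beside it. Of 7 such genes, 0 rose and 1 fell at 10 ppm, 1 rose and 2 fell at 40 ppm, and 0 rose and 2 fell at 120 ppm. Siglecf, a surface lectin of alveolar macrophages and eosinophils, fell by 0.80 ± 0.11, 0.88 ± 0.11 and 1.02 ± 0.11, and Itgax, an integrin of the same cells, stood at -0.01 ± 0.09 and then fell by 0.32 ± 0.09 and 0.37 ± 0.09. Cd68, a lysosomal protein of macrophages, stood at 0.32 ± 0.11 at 10 ppm (adjusted p = 0.0729), rose by 0.33 ± 0.11 at 40 ppm (adjusted p = 0.0364) and stood at 0.24 ± 0.11 at 120 ppm (adjusted p = 0.133). The scavenger receptor Marco stood at -0.09 ± 0.13, 0.28 ± 0.13 and 0.09 ± 0.13, and the mannose receptor Mrc1 at 0.11 ± 0.10, 0.22 ± 0.10 and -0.12 ± 0.10. Chil3 stood between 0.05 and 0.06 at all 3 doses, and Fabp4 at 0.18 ± 0.57, -0.09 ± 0.57 and -0.38 ± 0.57. The summed linear signal of the 7 genes ran from 5907 to 7130 in WT air, 5483 to 8003 at 10 ppm, 6228 to 7838 at 40 ppm and 6223 to 8023 at 120 ppm, so that exposed and air groups overlapped, and no marker was at 0. The part of macrophage number in the fall of Abcg1 was not tested. Club cell markers, of which 10 were measured, fell in 5 cases at 10 ppm, 10 at 40 ppm and 7 at 120 ppm. Their summed signal ran from 57538 to 63587 in air, 45269 to 55028 at 10 ppm, 35296 to 47118 at 40 ppm and 39317 to 48507 at 120 ppm. Of 7 ciliated cell markers 0 rose, and 1, 2 and 3 fell at 10, 40 and 120 ppm (list median at 120 ppm -0.35), with sums from 4329 to 4978 in air and 2982 to 3711 at 120 ppm. Of 4 monocyte markers 3 rose at 10 ppm, 1 rose and 1 fell at 40 ppm, and 2 rose at 120 ppm, with sums from 1632 to 2045 in air and 2216 to 3008 at 120 ppm. Of 8 alveolar type 2 markers 1, 1 and 2 rose and 0 fell. The shares of all genes that rose and fell at each dose are those given with the member counts. The part of these cell types in the sterol gene values was not tested.

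Other genes of sterol handling were read from lists that were chosen with results of these data known. In the oxysterol list 2 of 5 tested genes rose and 2 fell at 120 ppm (list median -0.08, all genes 0.01). Ch25h, which hydroxylates the side chain of cholesterol and is an interferon-driven gene of myeloid cells, rose by 1.49 ± 0.23, 1.50 ± 0.23 and 1.42 ± 0.23 at the 3 doses (adjusted p = 0.000198, 0.000132 and 0.00024). Cyp7b1, which breaks the product of Ch25h down, rose by 0.95 ± 0.25, 0.91 ± 0.25 and 0.91 ± 0.25, while Cyp27a1, the mitochondrial sterol hydroxylase, fell by 0.65 ± 0.15, 0.77 ± 0.15 and 0.65 ± 0.15. Cyp39a1, another oxysterol hydroxylase, fell by 0.42 ± 0.11, 0.68 ± 0.11 and 0.38 ± 0.11. Hsd3b7 of bile acid synthesis fell at 40 ppm, by 0.18 ± 0.06.

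In the LXR and efflux list 1 of 5 genes rose and 1 fell at 120 ppm (median -0.00). Mylip, the LXR-driven ubiquitin ligase of lipoprotein receptors, stood at -0.29 ± 0.10 at 10 ppm (adjusted p = 0.0701) and fell by 0.46 ± 0.10 and 0.47 ± 0.10 at 40 and 120 ppm, and Lpcat3, a phospholipid-remodelling LXR target, rose by 0.25 ± 0.07 at 120 ppm. Among 13 genes of uptake, transport and storage 3 rose and 3 fell at 120 ppm (median 0.05). Npc1, the lysosomal cholesterol exporter, fell by 0.42 ± 0.07 and Gramd1b, a carrier from the plasma membrane, by 0.42 ± 0.09, while Npc2, the partner of Npc1 inside the lysosome, rose by 0.20 ± 0.05.

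Of 8 genes of SREBP processing and sterol-driven degradation 0 rose and 2 fell at 120 ppm (median 0.05), Pgrmc1 by 0.28 ± 0.05 and the site-2 protease Mbtps2 by 0.21 ± 0.07. Of 10 isoprenoid branch genes 3 rose and 0 fell (median 0.15), led by Rabggta, a subunit of the enzyme that prenylates Rab proteins, at 0.38 ± 0.07. In the fatty acid synthesis list, which SREBP1 drives, 0 of 11 genes rose and 3 fell (median -0.01): Acss2 by 0.44 ± 0.12, Scd1 by 0.20 ± 0.06 and Thrsp by 1.70 ± 0.56. The shares over all genes tested at this dose are those given above, 14.3% higher and 9.65% lower.

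The enzymes were then read array by array, as the mean over 16 enzymes (Hmgcs1 included) of the log2 difference from the air mean of the strain. Hmgcs1 passed the level filter only through exposed WT arrays, where it stood 0.53, 0.85 and 0.66 above air at 10, 40 and 120 ppm. It therefore adds to the exposed WT means by the way it was selected, and no mean without it is given. In WT the 5 air arrays ran from -0.21 to 0.19, those at 40 ppm from 0.47 to 0.64 and those at 120 ppm from 0.41 to 0.58. The 10 ppm arrays spread over both ranges: replicates 1 to 5 stood at 0.62, 0.10, 0.25, 0.33 and 0.56. Replicates 1 and 5, the highest at 10 ppm, were also the lowest in Abcg1, at -0.60 and -0.93 from the air mean, where the other three stood at -0.34, -0.40 and -0.46. The same 2 arrays had the highest Ch25h of the group (8.55 and 8.18, against 7.01, 7.06 and 7.48), the highest Cyp7b1 (7.70 and 7.35, against 6.08, 6.25 and 6.29) and the lowest Cyp27a1 (6.18 and 5.94, against 6.90, 6.66 and 6.72). These are 5 arrays and were not tested.

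**Figure D3:**
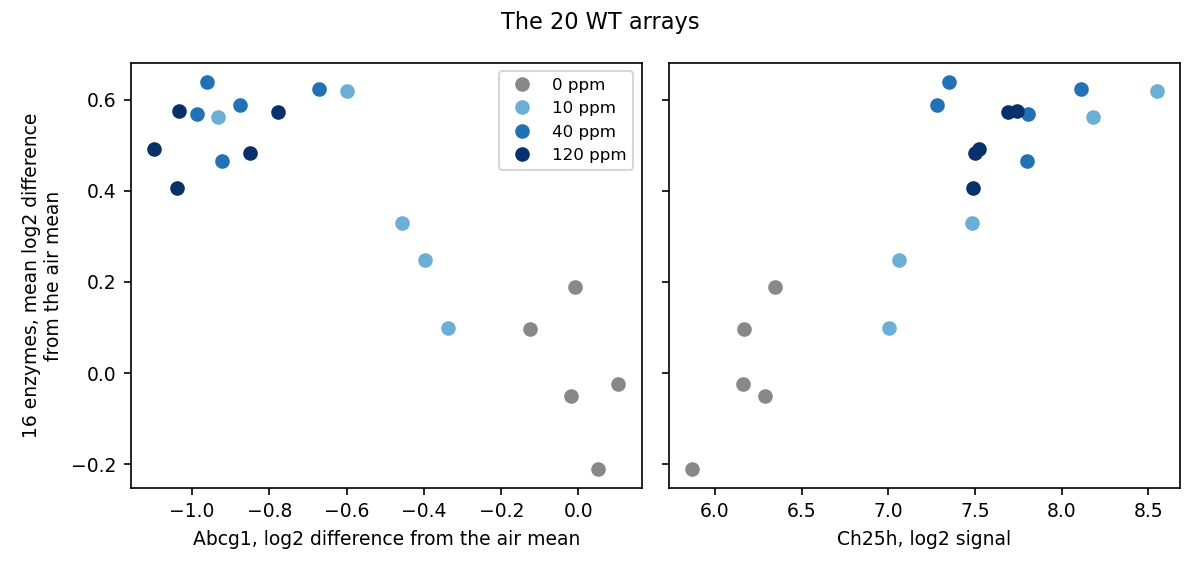
The 20 WT arrays, with the mean log2 difference of 16 enzymes from the air mean (vertical axis) against the log2 difference of Abcg1 from its air mean (left) and against the log2 signal of Ch25h (right), coloured by dose. On the vertical axis the arrays at 10 ppm run from 0.10 to 0.62: replicate 2, at 0.10, lies inside the air range, and the other 4 lie above it. The 16 include Hmgcs1, which passed the level filter only through exposed WT arrays.

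Direct contrasts between exposed WT groups asked whether the doses differed from each other. From 40 to 120 ppm 0 of the 21 members passed in either direction (all genes 0 and 0%, and 0 members at an unadjusted p under 0.05). From 10 to 40 ppm 0 passed by limma (all genes 0.324% higher and 0.622% lower), with 5 members at an unadjusted p under 0.05, and 2 passed without WT 10 ppm replicate 5 and 1 without WT 40 ppm replicate 1. The widest gap was that of Lss, 0.74 ± 0.21 higher at 40 than at 10 ppm (adjusted p = 0.0999). From 10 to 120 ppm 1 member passed (all genes 0.622% higher and 0.281% lower): Abcg1 was lower by -0.41 ± 0.10 (adjusted p = 0.0421). That call was kept in 2 of the 10 fits that left out 1 array (adjusted p up to 0.134).

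In KO lungs 0 of the 21 members passed by limma at 10, 40 or 120 ppm, and 0% of all genes did. At an unadjusted p under 0.05 the members numbered 2, 2 and 1 of 21 (all genes 5.69, 4.94 and 5.23%), and their medians were 0.01, -0.01 and -0.04 (all genes 0.01, 0.01 and 0.00). Cyp51 read 7.30, 7.12, 7.16, 7.31 and 7.37 in KO air and 7.06, 7.28, 6.83, 6.97 and 7.02 at 120 ppm, a difference of -0.22 ± 0.11. Abcg1 read 9.89, 9.69, 9.85, 9.68 and 9.71 in air and 9.87, 9.82, 9.74, 9.67 and 9.76 at 120 ppm, a difference of 0.01 ± 0.09. On its chosen probe set Stard4 was the tested member whose exposed KO arrays all lay above the air arrays, and its other 2 probe sets stood below air. It read 7.21, 7.12, 7.25, 7.22 and 7.19 in air, and its lowest exposed arrays read 7.31, 7.32 and 7.27 at 10, 40 and 120 ppm, the last a margin of 0.0134. The differences were 0.17 ± 0.05, 0.19 ± 0.05 and 0.12 ± 0.05 (adjusted p = 0.443, 0.988 and 0.929), where the other probe sets stood at -0.34, -0.17 and -0.07 and at -0.09, -0.08 and -0.07. Of all genes tested, 0.579, 0.359 and 0.333% had groups higher without overlap. The second probe set of Idi1 stood at -0.42, -0.18 and -0.48 in KO, below air without overlap at 10 and 120 ppm. The chosen probe set of Idi1 stood at -0.12, -0.05 and -0.20, with overlap. Over the 16 probe sets that had not been chosen, 6, 8 and 7 had the direction of the chosen one in KO at 10, 40 and 120 ppm. The same counts were 14, 9 and 8 in TG and 10, 13 and 9 in CD-1.

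In TG lungs 0 of the 21 members passed by limma at any dose (all genes 0 and 0% at 10 and 40 ppm, and 0.0614% higher and 0.00877% lower at 120 ppm). At 10 ppm 19 of the 21 members stood above air, with a median of 0.21, where the median of all genes was 0.06. At an unadjusted p under 0.05 the members numbered 8, 1 and 0 at 10, 40 and 120 ppm (all genes 13.8, 7.6 and 12.6%). Without TG 0 ppm replicate 4 the 10 ppm values became 17 of 21 above air, a member median of 0.17 and a median of all genes of 0.01. Hsd17b7 read 4.97, 5.04, 4.39, 3.96 and 4.95 in TG air and 5.14, 5.56, 5.24, 5.22 and 5.22 at 10 ppm, a difference of 0.61 ± 0.19 (adjusted p = 0.234). Msmo1 read 8.40, 8.43, 8.31, 8.13 and 8.47 in air and 8.73, 8.97, 8.93, 8.69 and 8.76 at 10 ppm (0.47 ± 0.17, adjusted p = 0.258). These genes and Cyp51 (0.33 ± 0.15) had no overlap between 10 ppm and air, as did 1.9% of all genes upward. The enzyme means of the 5 arrays at 10 ppm ran from 0.17 to 0.33, the air arrays from -0.27 to 0.19. At 40 and 120 ppm the member medians were 0.04 and 0.11 and those of all genes 0.05 and 0.06, so that at 40 ppm the members lay below all genes, and the enzyme means overlapped with air. Without TG 0 ppm replicate 4 the member medians were -0.0077 and 0.05, and on arrays centred on their own median -0.03 and 0.04. Abcg1 stood at 0.19 ± 0.09, -0.03 ± 0.09 and -0.01 ± 0.09 in TG.

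In CD-1 lungs 0 of the 21 members passed by limma (all genes 0 and 0% at 10 ppm, 0% higher and 0.00877% lower at 40 ppm, and 0.00877% each way at 120 ppm), with 2, 1 and 0 at an unadjusted p under 0.05 (all genes 2.38, 3.88 and 5.23%). The member medians were 0.05, 0.07 and 0.08 (all genes 0.00, 0.01 and 0.01), and that at 40 ppm was -0.02 without CD-1 40 ppm replicate 4, with 10 of 21 members above air in place of 16. CD-1 arrays of a group differed among themselves: at 40 ppm the enzyme means of 4 arrays ran from -0.13 to 0.09 and that of replicate 4 was 0.60. These means take in Hmgcs1, which adds to the exposed WT means by its selection, so they are not set against WT. That array read 7.86 for Cyp51, where the other 4 read 6.52 to 6.76, and all 16 of its enzymes stood above the air mean. At 120 ppm replicate 2 stood at 0.42 and the other 4 from -0.06 to 0.21. Abcg1 stood at 0.02 ± 0.10, -0.12 ± 0.10 and -0.16 ± 0.10 in CD-1, and its groups overlapped with air.

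**Figure D4:**
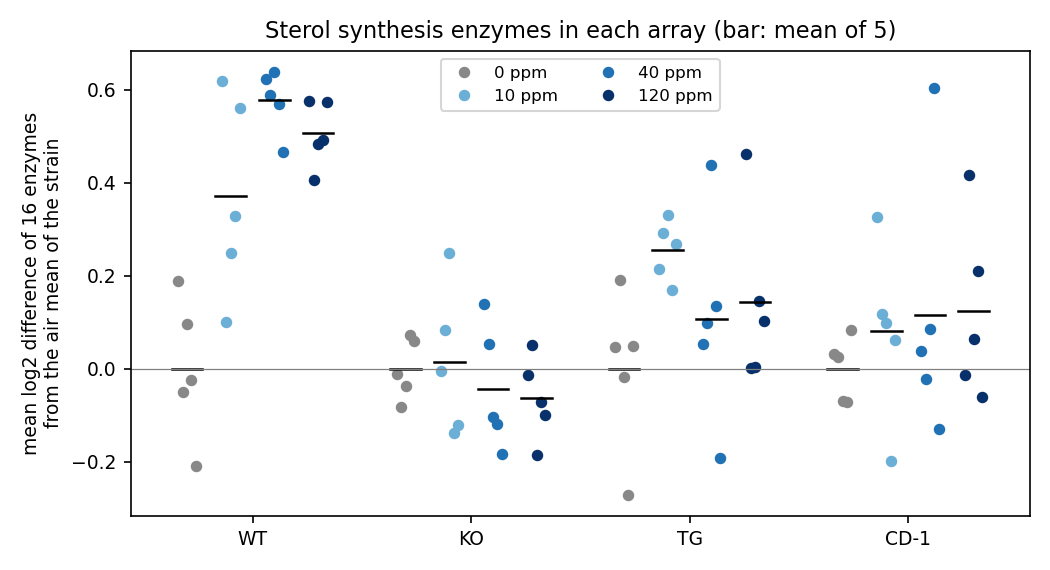
Mean log2 difference of 16 synthesis enzymes from the air mean of the strain (vertical axis), 1 point per array, by strain and dose (colour), with a bar at the mean of 5 arrays. WT arrays at 40 and 120 ppm lie between 0.41 and 0.64, above all WT air arrays, and CD-1 40 ppm replicate 4 lies at 0.60 apart from its group. The 16 include Hmgcs1, which passed the level filter only through exposed WT arrays.

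Whether the responses themselves differed was tested as the WT change minus the change in the other strain. Against KO, 5 of the 21 members had the higher change in WT and 1 the lower at 10 ppm (all genes 4.48 and 3.11%). The counts were 11 and 1 at 40 ppm (7.11 and 6.83%) and 10 and 1 at 120 ppm (7.05 and 4.39%). The differences at 40 ppm were 1.30 ± 0.19 for Hsd17b7 (adjusted p = 6.83e-06), 1.02 ± 0.18 for Cyp51 (adjusted p = 0.00018), 0.94 ± 0.25 for Lss and 0.82 ± 0.17 for Fdps. Lower values in KO are part of some of these: Hsd17b7 averaged 5.76 in KO air and 5.48 at 40 ppm, and Fdps 8.99 and 8.81. In KO Cyp51 and Lss stood at -0.04 and 0.04. Abcg1 differed by -0.50 ± 0.13, -0.96 ± 0.13 and -0.97 ± 0.13 at the 3 doses (adjusted p = 0.0138, 2.41e-06 and 2.29e-06). With all 80 arrays in 1 fit the count of 6 at 10 ppm was 2. These tests share the WT arrays with the contrasts in WT.

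Against TG fewer members passed the threshold. At 10 ppm 0 members differed upward and 1 downward (all genes 2.65 and 2.87%), and at 40 ppm 2 and 1 (3.78 and 6.37%), as at 120 ppm (3.87 and 5.88%). The member medians of the difference were 0.03, 0.39 and 0.33 at 10, 40 and 120 ppm (all genes -0.05, -0.06 and -0.04). At an unadjusted p under 0.05 the members numbered 2, 12 and 10 of 21 (all genes 19.5, 24.6 and 24.1%). The median standard error of the members was 0.18 against TG and 0.15 against KO. Cyp51 differed by 1.01 ± 0.21 at 40 ppm and 0.72 ± 0.21 at 120 ppm, Idi1 by 0.76 ± 0.18 and 0.57 ± 0.18, and Abcg1 by -0.73 ± 0.13, -0.86 ± 0.13 and -0.95 ± 0.13. At 40 ppm the count of 3 was 9 without TG 0 ppm replicate 4, 8 without TG 40 ppm replicate 3 and 6 without WT 0 ppm replicate 1. It was 5 and 7 on arrays centred on their own median and after quantile normalization. At 120 ppm the count of 3 was 5 without TG 0 ppm replicate 4 or TG 120 ppm replicate 1, and 1 without WT 0 ppm replicate 5.

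Against CD-1, 0 members differed upward and 1 downward at 10 ppm (all genes 1.53 and 0.368%), and 1 and 1 at 40 ppm (0.789 and 0.824%) and at 120 ppm (2.69 and 1.67%). The member medians of the difference were 0.10, 0.26 and 0.28 (all genes -0.00, -0.01 and 0.01), with a median standard error of 0.16. At an unadjusted p under 0.05 the members numbered 7, 8 and 8 of 21 (all genes 13.3, 16.9 and 18.5%). Hsd17b7 differed by 0.98 ± 0.19 and 0.76 ± 0.19 at 40 and 120 ppm. Abcg1 differed by -0.56 ± 0.14, -0.77 ± 0.14 and -0.80 ± 0.14, and at 10 ppm its call was kept in 14 of the 20 fits that left out 1 array. The difference for Cyp51 was 0.90 ± 0.26 at 40 ppm (adjusted p = 0.123), which did not pass. The 2 calls at 40 ppm became 8 when CD-1 40 ppm replicate 4 was left out, and the 2 at 120 ppm became 4 when CD-1 120 ppm replicate 2 was.

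**Figure D5:**
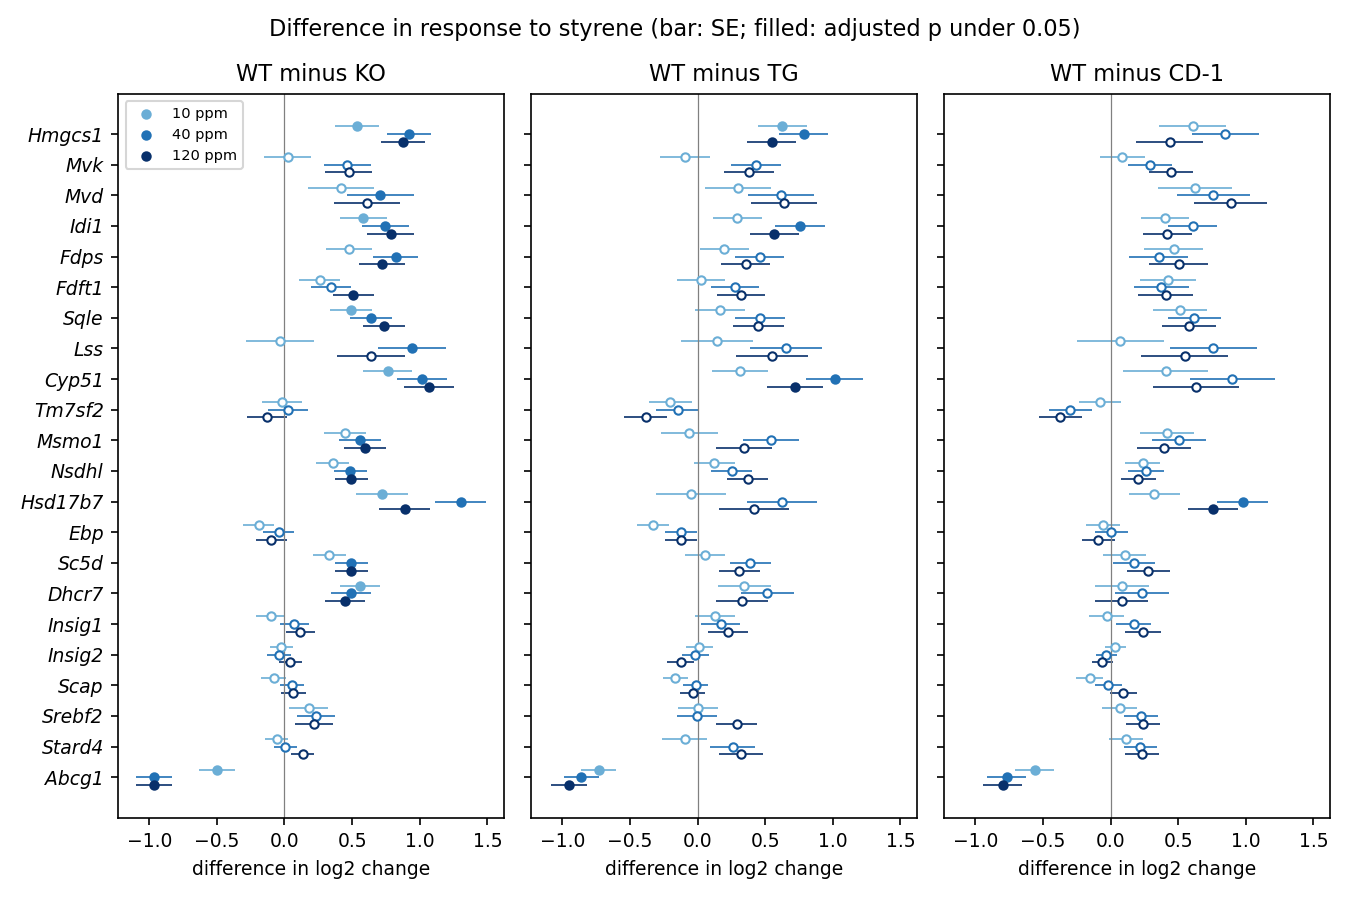
Difference between the WT change from air and the change in KO, TG or CD-1 (horizontal axis, log2 units) for 22 member genes (rows), with the standard error as a bar, doses by colour and filled points for an adjusted p under 0.05. Abcg1 lies to the left of 0 in all 9 comparisons, from -0.97 to -0.50, and Hsd17b7 reaches 1.30 against KO. The 22 include Hmgcs1, which passed the level filter only through exposed WT arrays and is left out of the counts of tested members.

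In air the strains were compared on the 20 control arrays. Over all genes the deposited values were shifted relative to WT by a median of -0.36 (KO), -0.48 (TG) and -0.23 (CD-1), and by -0.10 in TG relative to KO, and of the members 18, 20 and 19 passed as lower than in WT and 9 as lower in TG than in KO (all genes 74.6, 79.6, 48.6 and 22.7%). The members are therefore described on arrays centred on their own median. On that scale 0 of the 21 differed between KO and WT in either direction (all genes 6.4% higher and 6.29% lower). Between TG and WT 1 was higher and 8 were lower (18.9 and 16.3%), between CD-1 and WT 2 were higher and 13 lower (16.5 and 15.1%), and between TG and KO 0 were higher and 7 lower (13.4 and 12.6%).

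On the chosen probe sets most of the enzymes read lower in CD-1 air lungs than in WT. Hsd17b7 was lower by -0.89 ± 0.12, Sc5d by -0.86 ± 0.12, Cyp51 by -0.76 ± 0.14, Lss by -0.75 ± 0.12 and Fdps by -0.68 ± 0.10 (adjusted p = 1.41e-05, 1.9e-05, 0.000419, 8.02e-05 and 3.14e-05). For a pair of these the direction rested on the chosen probe set: the other Sc5d probe sets stood 0.44 and 0.74 higher in CD-1 on the centred scale, and those of Hsd17b7 at 0.13 and -0.16. The other Cyp51 probe sets stood at -1.14 and -0.18, in the direction of the chosen one, and Lss and Fdps had 1 each. Abcg1 was 0.58 ± 0.08 higher in CD-1 (adjusted p = 2.23e-05), and 0.56 higher on its second probe set. Stard4 was 0.21 ± 0.07 higher, where the value before centring had the other sign (-0.04) and the other probe sets stood at 0.49 and -0.34. In TG, Hsd17b7 was lower than in WT by -0.67 ± 0.12 and Msmo1 by -0.54 ± 0.09, with the other probe sets at -0.15 and 0.01 for Hsd17b7 and 0.07 for Msmo1. Srebf2 was 0.45 ± 0.09 higher in TG, with the other sign before centring, and its other probe set stood at -0.14, which goes against that rise. Hsd17b7 was also lower in TG than in KO, by -0.99 ± 0.12, with its other probe sets at -0.21 and 0.03. Over 16 probe sets of 11 members that had not been chosen, 12 had the direction of the chosen one in CD-1 against WT, 8 in TG against WT and 8 in TG against KO. Strain and any separate handling of the arrays of a strain cannot be told apart.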

How the data were processed

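The deposited table holds log2 signal of 45037 probe sets on 80 Affymetrix arrays. The submitters' processing notes name RMA and Partek as the authors' tools, with no version or setting, and do not say whether strains were normalized together. The supplied annotation gave 28898 probe sets 1 gene symbol, 551 several and left 15588 unnamed. A gene was read by its probe set with the highest mean over 80 arrays, and the symbols of the 23 members matched RefSeq (GRCm38.p6).

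The models were those of limma (version 3.58.1, run in R 4.3.3 with the package data.table at 1.17.8), with p-values adjusted by Benjamini-Hochberg over all 11406 genes and a threshold of 0.05. Each strain was fitted alone (20 arrays), response differences on 40 arrays and strains in air on 20. All members were named, with up to 3 genes of each other list by lowest p in WT at 120 ppm, and every oxysterol gene that passed. The members and lists were chosen with earlier results of these data known. The 7 macrophage markers were named after their values were seen. On simulated data the scripts recovered 67.2 to 88.1% of log2 changes of 0.5. False calls there ran from 3.06% for WT at 120 ppm against air to 8.85% for the WT minus KO response to 120 ppm. Within groups arrays correlated at 0.978 to 0.997 and no 2 were duplicates. The number of arrays limits precision, and p-values measure only the spread between arrays. Alternatives were the probe set rule, array centring, quantile normalization, no level filter, a variance trend, 1 fit of all arrays, the replicate block and leaving out 1 array.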

Additional observations from a re-analysis of the deposited data

Results flagged for a closer look

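A value counted as standing apart from its group where its gap to the nearest of the other 4 arrays, divided by the range of the 5, was above Dixon's critical value of 0.71. Of 368 groups (23 members in 16 groups), 18 held such a value, where chance flags about 1 in 20, or 18.4. CD-1 40 ppm replicate 4 held 4 of them, with log2 signals of 6.46 for Mvk (others 5.80 to 5.93), 8.50 for Sqle (others 7.56 to 7.76), 7.86 for Cyp51 (others 6.52 to 6.76) and 8.35 for Nsdhl (others at most 8.06). TG 0 ppm replicate 4 held 3 of them, with log2 signals of 4.99 for Mvk (others 5.52 to 5.72), 5.78 for Dhcr7 (others 6.33 to 6.43) and 2.68 for Npc1l1 (others 2.95 to 3.05). TG 120 ppm replicate 1 held 2 of them, with log2 signals of 9.11 for Msmo1 (others 8.25 to 8.44) and 5.42 for Hsd17b7 (others 4.74 to 4.91). Single values were 3.86 for Hmgcs1 in KO 0 ppm replicate 5 (others at most 3.59), 9.03 for Fdft1 in WT 40 ppm replicate 5 (others 9.11 to 9.12) and 5.56 for Hsd17b7 in TG 10 ppm replicate 2 (others 5.14 to 5.24). Further single values were 7.34 for Dhcr7 in WT 120 ppm replicate 1 (others 6.94 to 7.02), 8.68 for Insig2 in CD-1 10 ppm replicate 4 (others 8.85 to 8.89) and 7.32 for Srebf2 in KO 10 ppm replicate 1 (others 6.98 to 7.04). The remaining single values were 3.69 for Npc1l1 in WT 120 ppm replicate 3 (others 3.14 to 3.21), 3.28 for Npc1l1 in KO 0 ppm replicate 2 (others 3.01 to 3.07) and 2.73 for Npc1l1 in CD-1 0 ppm replicate 2 (others 3.21 to 3.37).

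The change from air differed between WT and another strain in 41 tests of the difference itself (limma, adjusted p under 0.05), given here as the WT change minus that of the other strain in log2 units. Against KO the differences were Idi1 0.58, 0.74 and 0.79 at 10, 40 and 120 ppm, Sqle 0.49, 0.64 and 0.74 at 10, 40 and 120 ppm, and Cyp51 0.76, 1.02 and 1.07 at 10, 40 and 120 ppm. They were Hsd17b7 0.72, 1.30 and 0.89 at 10, 40 and 120 ppm, Dhcr7 0.56, 0.49 and 0.45 at 10, 40 and 120 ppm, and Abcg1 -0.50, -0.96 and -0.97 at 10, 40 and 120 ppm. Others were Mvd 0.71 at 40 ppm, Fdps 0.82 and 0.72 at 40 and 120 ppm, and Lss 0.94 at 40 ppm. They were Msmo1 0.56 and 0.60 at 40 and 120 ppm, Nsdhl 0.49 and 0.49 at 40 and 120 ppm, and Sc5d 0.49 and 0.49 at 40 and 120 ppm. Fdft1 differed by 0.51 at 120 ppm. Against TG the differences were Abcg1 -0.73, -0.86 and -0.95 at 10, 40 and 120 ppm, Idi1 0.76 and 0.57 at 40 and 120 ppm, and Cyp51 1.01 and 0.72 at 40 and 120 ppm. Against CD-1 the differences were Abcg1 -0.56, -0.77 and -0.80 at 10, 40 and 120 ppm, and Hsd17b7 0.98 and 0.76 at 40 and 120 ppm.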

How the results depend on the processing

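Counts are of the 21 tested members past the threshold in either direction, and no cause of a move was tested. In WT the counts of 11, 14 and 16 at 10, 40 and 120 ppm were within 1.5 times under every alternative fit, and ran from 6 to 12, 14 to 15 and 13 to 16 on leaving out 1 array. The count of 11 at 10 ppm was lowest without WT 10 ppm replicate 5, where the genes called of all tested fell to 919 from 1434. With all 80 arrays in 1 fit the count was 1 in place of 0 for TG at 10 ppm and for WT from 10 to 40 ppm, and 2 in place of 6 for WT against KO at 10 ppm. The single member from 10 to 120 ppm in WT was lost with no level filter (0), after quantile normalization (0) and with the replicate block (0). The single member for WT against CD-1 at 10 ppm was lost with the mean of all probe sets (0) and the replicate block (0). For WT against TG at 40 ppm the count of 3 became 5 on centred arrays, 5 with the mean of all probe sets and 7 after quantile normalization.

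Leaving out 1 array gave 0 to 2 from 10 to 40 ppm in WT, 0 to 1 from 10 to 120 ppm, 4 to 9 for WT against KO at 10 ppm, and 1 to 5 for WT against TG at 120 ppm. It gave 3 to 9 for WT against TG at 40 ppm, and 0 to 1, 2 to 8 and 2 to 4 for WT against CD-1 at 10, 40 and 120 ppm. The 9 calls of WT against KO at 10 ppm came without WT 0 ppm replicate 1. Every leave-one-out fit of KO, TG or CD-1 against air gave 0.

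In air the counts against WT fell on centred arrays from 18 to 0 in KO and from 20 to 9 in TG, and to 0 and 9 after quantile normalization. Signs turned on centred arrays and after quantile normalization, in that order, for Stard4 in CD-1 (0.21 and 0.21), for Abcg1 (0.045 and 0.019), Insig2 (0.092 and 0.084), Nsdhl (0.13 and 0.14) and Sqle (0.094 and 0.10) in KO, and for Dhcr7 (0.094 and 0.13) and Srebf2 (0.45 and 0.45) in TG. Hmgcs1 in KO turned after quantile normalization (0.054), Insig2 in TG on centred arrays (0.039), and Stard4 in TG against KO with the mean of all probe sets (-0.47). Further signs turned on centred arrays. In KO against WT, Hsd17b7 went from -0.06 to 0.31, Srebf2 from -0.11 to 0.26 and Dhcr7 from -0.12 to 0.25. In TG against KO, Idi1 went from -0.09 to 0.02, Lss from -0.10 to 0.01 and Mvd from -0.06 to 0.06.

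No clear pairing of arrays by replicate number was seen: of 30 same-numbered pairs a strain, those that correlated over 0.1 were 7 (WT), 10 (KO), 11 (TG) and 7 (CD-1). In the same order the median correlation was -0.02, 0.05, 0.01 and 0.03 for same-numbered pairs. For pairs of other numbers it was -0.03, -0.04, -0.01 and -0.01. With the number as a block the WT counts were 11, 15 and 16 at 10, 40 and 120 ppm. Low signal limits Hmgcs1 and Npc1l1, which sit below the table median in air.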
